A study of Mus musculus with 9 samples.

Results

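The genes described here are 10 transcripts of the unfolded protein response and the integrated stress response in mouse liver: Hspa5, Hsp90b1, Pdia4, Xbp1, Dnajb9, Herpud1, Atf4, Ddit3, Trib3 and Asns. They were chosen by name, from the pathways they belong to, out of 45513 gene IDs in a table of raw RNA-seq counts. Earlier results of these data were known when they were chosen. All 10 were found by gene ID and symbol, and all 10 were among the 12102 genes with enough counts to be tested. The livers came from C57BL/6 mice after 9 weeks on a diet and a treatment, with 3 libraries in each of 3 groups, called livers here although the labels do not say that each came from its own mouse. Mice of the first group were on the high fat diet and received B-LGND2, a code-named compound which, going by the title of the series, is an estrogen receptor beta ligand. Mice of the second group were on the high fat diet and received vehicle, and those of the third were on the normal diet and received vehicle. No group combined the normal diet with B-LGND2, so the ligand was compared on the high fat diet only. The sources used here give no dose, diet composition or sex of the mice.

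The unfolded protein response is set off when unfolded proteins build up in the endoplasmic reticulum (ER), the compartment in which secreted and membrane proteins fold. It has 3 sensors in the ER membrane: ATF6, which is cut to release a transcription factor, IRE1, which splices the Xbp1 transcript so that it encodes an active transcription factor, and PERK, which phosphorylates the translation factor eIF2 alpha. PERK shares that last step with kinases that sense amino acid shortage, viral RNA and haem shortage, and the common arm is called the integrated stress response. Phosphorylated eIF2 alpha slows translation in general while favouring translation of ATF4, which switches on genes of amino acid supply and, with prolonged stress, of cell death. Hepatocytes carry a large ER because they secrete most plasma proteins, and both arms are much studied in livers of animals fed a high fat diet. Splicing of Xbp1, phosphorylation and protein levels cannot be read from gene counts.

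The start-site regions of 4 of the genes are shown because they carry response elements that link the chaperone, degradation and amino acid genes to their factors. RefSeq promoter windows on GRCm38.p6 were available for 10 of the 10 genes. Each stretch below runs from 220 to 11 bases before the RefSeq start site, 5′ to 3′ on the strand of the gene, with the letters of the matched element in capitals.
Hspa5: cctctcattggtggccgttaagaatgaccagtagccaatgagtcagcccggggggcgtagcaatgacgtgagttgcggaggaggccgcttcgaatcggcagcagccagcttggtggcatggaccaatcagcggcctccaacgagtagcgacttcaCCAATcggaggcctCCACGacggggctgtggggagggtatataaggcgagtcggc
Hsp90b1: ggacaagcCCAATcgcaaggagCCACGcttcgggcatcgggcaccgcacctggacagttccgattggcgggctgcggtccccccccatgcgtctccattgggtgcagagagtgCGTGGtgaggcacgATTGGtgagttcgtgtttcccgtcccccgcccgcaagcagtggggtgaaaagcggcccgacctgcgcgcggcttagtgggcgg
Herpud1: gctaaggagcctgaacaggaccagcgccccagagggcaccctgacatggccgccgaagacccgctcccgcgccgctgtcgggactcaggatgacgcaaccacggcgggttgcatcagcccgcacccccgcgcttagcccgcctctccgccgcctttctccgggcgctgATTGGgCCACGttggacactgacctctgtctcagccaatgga
Asns: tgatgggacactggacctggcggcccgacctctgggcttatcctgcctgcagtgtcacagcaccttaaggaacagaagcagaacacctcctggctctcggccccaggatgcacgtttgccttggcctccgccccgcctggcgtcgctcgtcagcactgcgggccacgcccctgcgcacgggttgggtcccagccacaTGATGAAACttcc
The Hspa5 stretch lies at chr2:34771870-34772079 on the plus strand and holds the ER stress response element, CCAAT and CCACG with 9 bases between them, at −65 to −47. Hsp90b1, at chr10:86705455-86705664 on the minus strand, holds that element at −212 to −194 and again, on the opposite strand, at −107 to −89. In Herpud1, at chr8:94386209-94386418 on the plus strand, the second form of the element, ATTGG and CCACG with 1 base between them, lies at −52 to −42. Asns, at chr6:7693220-7693429 on the minus strand, holds TGATGAAAC, the first nutrient-sensing response element described in this gene, at −23 to −15.

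Each element was searched on both strands of the windows from 250 bases before to 50 after the start site. The ER stress response element was present in 2 of the 10 windows and in 39 of all 32851 windows (0.119%). Its second form was present in 1 of the 10 and in 12 of all windows (0.0365%), and the nutrient-sensing element, which was added to the search after the windows had been seen, in 1 of the 10 and in 81 of all windows (0.247%). The XBP1 and ATF6 element TGACGTGG (0.676% of all windows) had no match in the 10 windows. Nor did the composite C/EBP and ATF element when searched as TGATGNAAT (0.965%), with its last base fixed to T. The Asns letters TGATGAAAC differ from that form only in the last base. Apart from them, forms with another last base were not searched, so composite sites in these windows are not excluded. A match is a description of the letters and no evidence of binding, and the lack of one says only that these letters are not in this window. The genes were chosen by name and the elements for their known link to such genes, so these shares are no test of enrichment.

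Library totals ran from 5778978 to 10322972 counts, and both ends belonged to the B-LGND2 group. Levels are given as counts per 1000000 counts (CPM) on library sizes scaled by the trimmed mean of M-values, and error is the SD over 3 libraries. The groups differed in composition: ribosomal RNA models took 5.51% ± 1.04 of counts in the B-LGND2 livers, 1.20% ± 0.275 in the high fat vehicle livers and 3.42% ± 0.299 in the normal diet livers. The groups also differed in how the deviation of a gene from its mean over all libraries followed GC content and transcript length. Spearman's rho with GC content was 0.0454 to 0.501 in B-LGND2, −0.0979 to −0.0271 in high fat vehicle and −0.249 to −0.151 in normal diet libraries. With transcript length it was −0.241 to 0.0826, 0.299 to 0.359 and −0.504 to 0.204 in the same order. Single libraries also stood apart. Mitochondrial transcripts took 12.7% of counts in normal diet replicate 1 and 3.69% to 6.12% in the others, and in B-LGND2 replicate 1 the deviation of a gene from its mean over all libraries correlated with its GC content (Spearman's rho across genes 0.501, and −0.249 to 0.0808 in the others). The 8 hepatocyte markers, Alb and Ttr among them, were detected in every group, with a summed level of 73850 to 114172 CPM in the B-LGND2 livers, 72984 to 80473 CPM in the high fat vehicle livers and 74026 to 84220 CPM in the normal diet livers. Single markers went both ways. With B-LGND2 against vehicle edgeR called Apoa1 alone, higher (log2 fold change 1.40, adjusted p 0.0283). The B-LGND2 libraries lay above the high fat vehicle libraries for 2 of the 8 (16.4% of all genes). They lay below for 3, Alb, Cps1 and Tat (17.2% of all genes). For high fat against normal diet edgeR called Tat alone, higher (1.44, adjusted p 0.0134). The 12 Kupffer cell and macrophage markers summed to 1171 to 1503 CPM with B-LGND2, 329 to 443 CPM with high fat vehicle and 352 to 600 CPM on normal diet, none was at 0, and 10 of 12 were called higher with B-LGND2 than with vehicle on the high fat diet. Plasma cells are rich in ER chaperones. The 9 markers of B and plasma cells summed to 312 to 382 CPM with B-LGND2, 191 to 217 CPM with high fat vehicle and 195 to 252 CPM on normal diet. Most of that sum was Sdc1 (288 to 352, 174 to 197 and 172 to 223 CPM in the same order), a gene that hepatocytes also express, and Mzb1, a plasma cell gene, had at most 3 counts in any library. Of the 4 tested markers of this list edgeR called Sdc1 alone with B-LGND2 against vehicle, higher (log2 fold change 0.72, adjusted p 0.0470). Igkc, the immunoglobulin kappa constant gene, had 12.2 to 17.7 CPM with B-LGND2, 7.22 to 9.56 CPM with high fat vehicle and 10.3 to 17.4 CPM on normal diet, so that the high fat vehicle livers lay below both other groups without overlap, and neither difference passed (adjusted p 0.140 and 0.163). Endothelial markers summed to 263 to 302 CPM with B-LGND2, 157 to 215 CPM with high fat vehicle and 190 to 254 CPM on normal diet, and cholangiocyte markers to 52.2 to 65.3, 29.9 to 35.5 and 35.6 to 45.5 CPM in the same order. With B-LGND2 against vehicle 1 of 9 endothelial markers, Kdr, and 1 of 3 tested cholangiocyte markers, Spp1, were called higher. Most of the cholangiocyte sum was Spp1, with a mean of 46.2 CPM with B-LGND2 and 23.8 CPM with high fat vehicle. The other 2 of the 3, Krt19 and Sox9, did not pass by edgeR (adjusted p 0.606 and 0.627). Whether these differences in cell types and composition had a part in the results below was not tested, and in whole liver fewer cells of a type and less RNA per cell cannot be told apart.

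On a per-length scale Herpud1 had the highest mean of the 10 transcripts in each group and Asns the lowest. In high fat vehicle livers Herpud1 was highest at 314 ± 55.4 RPKM (CPM per kilobase of all annotated exons of a gene, which may be longer than the main transcript), followed by Hspa5 at 155 ± 13.8, Xbp1 at 107 ± 9.63, Pdia4 at 63.9 ± 11.3, Hsp90b1 at 47.2 ± 0.774 and Atf4 at 37.8 ± 4.51 RPKM. Dnajb9 was at 12.8 ± 2.13, Ddit3 at 3.81 ± 0.533, Trib3 at 3.61 ± 0.743 and Asns at 0.496 ± 0.192 RPKM. Herpud1 ranked 169th and Asns 11019th among the 12071 tested genes that have a length. Ddit3 and Trib3 could not be ordered, because their libraries overlapped in this group. Herpud1, Hspa5 and Xbp1 were also the top 3 in the B-LGND2 livers, at 250 ± 8.67, 208 ± 79.8 and 115 ± 13.8 RPKM, where the libraries of Herpud1 and Hspa5 overlapped. On normal diet Herpud1 was at 221 ± 58.7, Xbp1 at 183 ± 63.5 and Hspa5 at 147 ± 45.8 RPKM, and all 3 overlapped. Asns, Ddit3 and Trib3 rest on few reads: they had 67, 207 and 153 counts in all 3 B-LGND2 libraries, 27, 129 and 154 in the high fat vehicle libraries and 70, 125 and 215 in the normal diet libraries.

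None of the 10 genes passed the test in any comparison. With edgeR's quasi-likelihood test and Benjamini-Hochberg adjustment over 12102 genes, 0 of 10 were called at an adjusted p under 0.05 between high fat and normal diet under vehicle, where 2.99% of all genes were called. Likewise 0 of 10 were called between B-LGND2 and vehicle in high fat livers (5.63% of all genes), and 0 of 10 between high fat livers with B-LGND2 and normal diet livers (2.93% of all genes). At an unadjusted p under 0.05 there were 4, 2 and 1 of 10 in the same order, against 22.4%, 23.7% and 19.4% of all genes. The libraries of the groups compared did not overlap for 3, 2 and 0 of 10, against 30.1%, 33.6% and 20.5% of all genes. DESeq2 called 1, 1 and 0 of them, and limma-voom called 0 in each comparison. The smallest adjusted p of the 30 values was 0.0838, for Atf4 with B-LGND2 against vehicle. Over the 10 genes the median log2 fold change was −0.30 for high fat against normal diet and 0.38 for B-LGND2 against vehicle in high fat livers, against 0.01 and −0.00 over all genes tested, and the high fat vehicle libraries enter both comparisons with opposite sign.

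**Figure D1:**
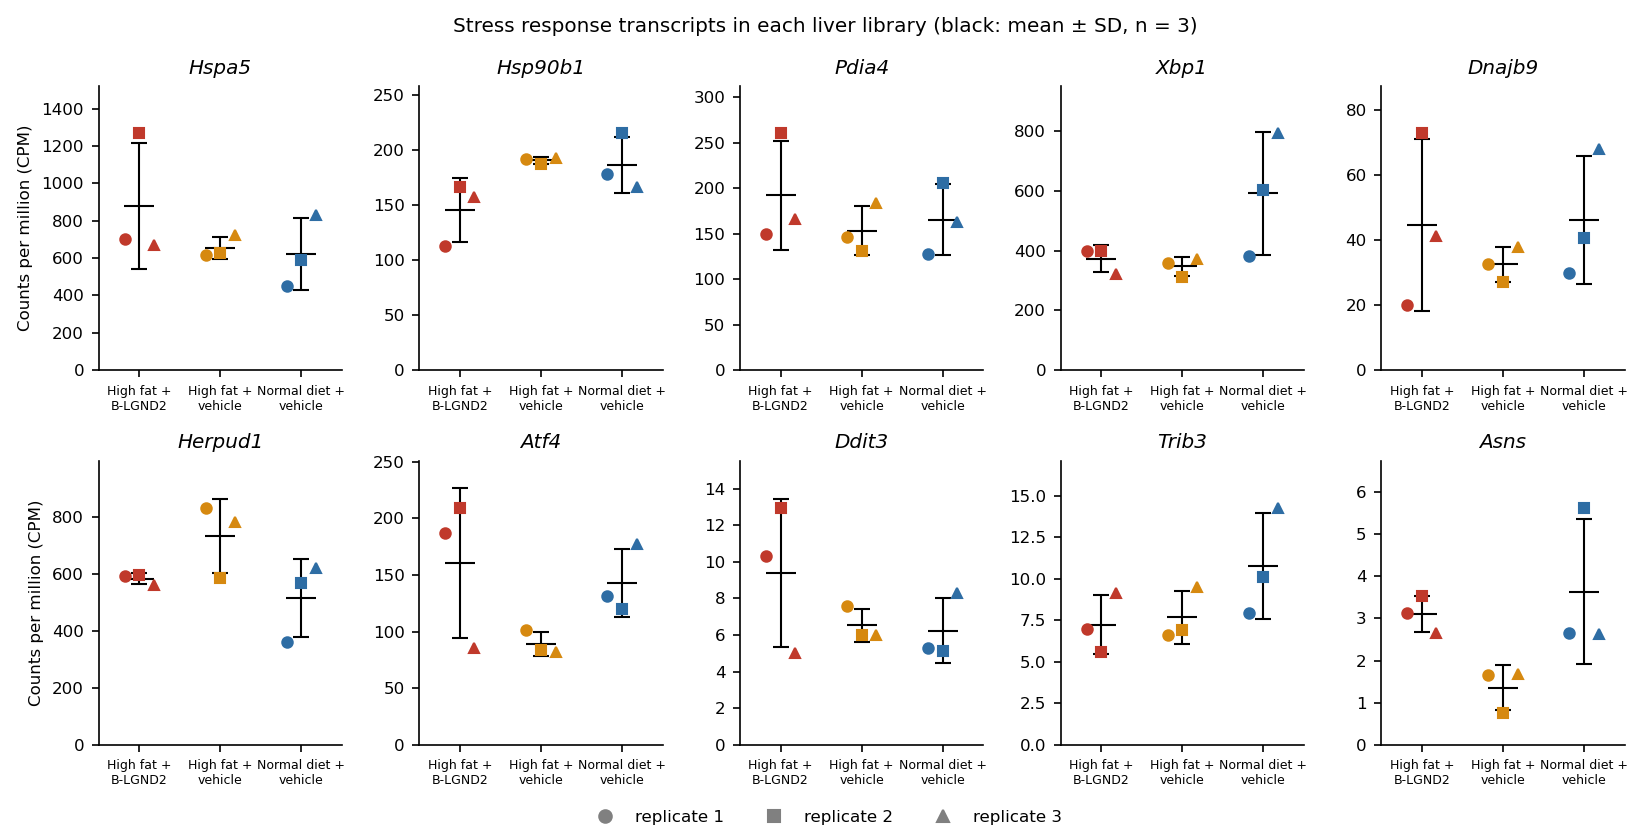
Level (CPM) of the 10 transcripts in each of the 9 liver libraries, with the mean and SD of the 3 libraries of a group in black and the replicate number as the shape of the point. The high fat vehicle libraries lie close together for most genes, whereas B-LGND2 replicate 2 is high for Hspa5 (1268 CPM), Pdia4 (260.1 CPM) and Dnajb9 (72.8 CPM), and normal diet replicate 3 is high for Xbp1 (794 CPM).

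The ER chaperones showed no difference that passed the test, and the higher means of Hspa5 and Pdia4 with B-LGND2 came mostly from 1 library. Hspa5 (GRCm38 chr2:34771970-34777547, plus strand) encodes BiP, the main Hsp70 chaperone of the ER and the protein that holds the sensors inactive. It had 701, 1268 and 668 CPM in the B-LGND2 livers, 614, 627 and 721 CPM in the high fat vehicle livers and 448, 590.1 and 831 CPM in the normal diet livers. Only B-LGND2 replicate 2 stood above every vehicle library, and the groups overlapped. The log2 fold change was 0.43 (SE 0.275, adjusted p 0.360) for B-LGND2 against vehicle in high fat livers, and it was 0.09 without B-LGND2 replicate 2. High fat against normal diet gave 0.07 (SE 0.275, adjusted p 0.903), with a 95% interval of −0.51 to 0.65.

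Pdia4 (chr6:47796141-47813430, minus strand) encodes a protein disulfide isomerase of the ER. Its level was 149.7, 260.1 and 166 CPM with B-LGND2, 146, 131 and 183 CPM with high fat vehicle and 127, 206 and 163 CPM on normal diet. All 3 groups overlapped, and B-LGND2 replicate 2 was again the highest. B-LGND2 against vehicle gave a log2 fold change of 0.32 (95% interval −0.21 to 0.86, adjusted p 0.454), and 0.06 without B-LGND2 replicate 2. For high fat against normal diet it was −0.11 (−0.64 to 0.43, adjusted p 0.835).

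Hsp90b1 (chr10:86690209-86705509, minus strand) encodes GRP94, the Hsp90 chaperone of the ER. Its promoter and that of Hspa5 hold the ER stress response element shown above. Hsp90b1 had 112, 166 and 157 CPM in the B-LGND2 livers, 191, 187 and 193 CPM in the high fat vehicle livers and 178, 215 and 166 CPM in the normal diet livers. The 3 B-LGND2 libraries lay below the 3 high fat vehicle libraries, the sole gene of the 10 to do so, where 17.2% of all genes did. The log2 fold change of −0.39 (SE 0.21) did not pass (adjusted p 0.273, 95% interval −0.83 to 0.06). Its lowest library was B-LGND2 replicate 1, the one whose deviations followed GC content most closely. Hsp90b1 has the second lowest GC content of the 10 (42.1% of the bases of its longest transcript). The log2 fold change was −0.20 without that library and −0.20 with offsets for length and GC content. Whether GC content had a part in the difference was not tested.

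Of the XBP1 branch and the degradation genes, Xbp1 came closest to the threshold, with lower levels on the high fat diet. Xbp1 (chr11:5520659-5525893, plus strand) encodes the transcription factor of the IRE1 arm, and in the liver it is also known for a role in lipid synthesis. It had 400.0, 398 and 321 CPM in the B-LGND2 livers, 358, 313 and 373 CPM in the high fat vehicle livers and 382, 605 and 794 CPM in the normal diet livers. All 3 high fat vehicle libraries lay below all 3 normal diet libraries, as 14.8% of all genes did, and the nearest libraries of the groups were high fat vehicle replicate 3 and normal diet replicate 1. The means were 348 ± 31.3 CPM with high fat vehicle and 593 ± 206 CPM on normal diet, a log2 fold change of −0.77 (SE 0.25, 95% interval −1.29 to −0.25, adjusted p 0.0867). Without normal diet replicate 1, the library with 12.7% mitochondrial counts, it was −1.01 and passed (adjusted p 0.00861). It also passed without a filter on low counts (0.0311) and with DESeq2 (0.0351). Over all alternatives the adjusted p ranged from 0.00861 to 0.379, and both ends came from leaving out 1 library. The log2 fold change ran from −1.01 to −0.51 in those fits. With B-LGND2 against vehicle in high fat livers the log2 fold change of Xbp1 was 0.10 (95% interval −0.42 to 0.62, adjusted p 0.837).

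Dnajb9 (chr12:44205559-44210326, minus strand), also called ERdj4, is a co-chaperone of BiP that XBP1 induces and that restrains IRE1. It had 20.2, 72.8 and 41.1 CPM in the B-LGND2 livers, 32.7, 27.1 and 37.9 CPM in the high fat vehicle livers and 29.8, 40.7 and 68.0 CPM in the normal diet livers. The B-LGND2 group held both the lowest and the highest of the 9 libraries, with a coefficient of variation of 59.3%, against 16.7% in the high fat vehicle group and 42.7% in the normal diet group. With B-LGND2 against vehicle the log2 fold change was 0.45 (SE 0.39, adjusted p 0.496), and −0.07 without B-LGND2 replicate 2. Its lowest library was again B-LGND2 replicate 1, and Dnajb9 has the lowest GC content of the 10 (40.6%). The log2 fold change was 0.84 without that library and 0.58 with offsets for length and GC content. Whether GC content had a part in these values was not tested. For high fat against normal diet the log2 fold change was −0.51 (95% interval −1.33 to 0.32, adjusted p 0.463).

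Herpud1 (chr8:94386438-94395377, plus strand) encodes an ER membrane protein that helps assemble the complex that exports misfolded proteins for degradation. Its level was 594, 595 and 559.5 CPM with B-LGND2, 831, 587 and 782 CPM with high fat vehicle and 360.4, 568 and 619 CPM on normal diet. The B-LGND2 libraries lay within 1 narrow range, and high fat vehicle replicate 2 overlapped both other groups. Herpud1 was the sole gene of the 10 with a higher level on the high fat diet at an unadjusted p under 0.05. The log2 fold change was 0.51 (SE 0.23, 95% interval 0.01 to 1.00) with an adjusted p of 0.211. Its lowest library was normal diet replicate 1, which had 12.7% mitochondrial counts. With 1 library left out the log2 fold change ran from 0.30 to 0.66 (adjusted p 0.217 to 0.465). With B-LGND2 against vehicle it was −0.33 (95% interval −0.82 to 0.16, adjusted p 0.402).

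In the ATF4 branch, Atf4 and Asns had their lowest means in the high fat vehicle group, and neither passed the test. Atf4 (chr15:80255184-80257541, plus strand) encodes the central transcription factor of the integrated stress response, which is controlled mainly at translation. It had 187, 209 and 85.4 CPM in the B-LGND2 livers, 101, 84.1 and 82.1 CPM in the high fat vehicle livers and 132, 120.1 and 177 CPM in the normal diet livers. B-LGND2 replicates 1 and 2 stood above all 6 vehicle libraries, while replicate 3 lay within the range of the high fat vehicle group. With B-LGND2 against vehicle the log2 fold change was 0.85 (SE 0.28, 95% interval 0.25 to 1.45, adjusted p 0.0838). It passed without B-LGND2 replicate 3 (1.15, adjusted p 0.0260), without normal diet replicate 3 (adjusted p 0.0455), without a filter on low counts (0.0150) and with DESeq2 (0.0484), and the adjusted p ranged from 0.0150 to 0.250 over all alternatives. The high fat vehicle libraries all lay below the normal diet libraries, with a log2 fold change of −0.68 (SE 0.28, 95% interval −1.28 to −0.08, adjusted p 0.167).

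Asns (chr6:7675169-7693254, minus strand) encodes asparagine synthetase, a well known target of ATF4 through the nutrient-sensing element shown above. It was counted 27, 24 and 16 times in the B-LGND2 libraries, 10, 5 and 12 times in the high fat vehicle libraries and 17, 34 and 19 times in the normal diet libraries. That is 3.11 ± 0.434 CPM, 1.36 ± 0.525 CPM and 3.63 ± 1.72 CPM in the same order. The high fat vehicle libraries lay below both other groups without overlap. The log2 fold change was 1.19 (SE 0.48, 95% interval 0.18 to 2.19, adjusted p 0.141) for B-LGND2 against vehicle, the sole gene of the 10 whose B-LGND2 libraries all lay above the high fat vehicle libraries, where 16.4% of all genes did. For high fat against normal diet it was −1.40 (SE 0.47, 95% interval −2.40 to −0.40, adjusted p 0.102), and −1.58 with an adjusted p of 0.0457 without normal diet replicate 1 (0.0457 to 0.342 over all alternatives).

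The group means of Ddit3 and Trib3, which lie downstream of ATF4, came in another order than those of Atf4. Their libraries overlapped in each comparison, so the order of the groups is not settled for these genes. Ddit3 (chr10:127290774-127296288, plus strand) encodes CHOP, a transcription factor tied to cell death under prolonged ER stress. It had 10.3, 12.9 and 5.00 CPM in the B-LGND2 livers, 7.59, 6.02 and 5.99 CPM in the high fat vehicle livers and 5.30, 5.13 and 8.30 CPM in the normal diet livers. As for Atf4, B-LGND2 replicates 1 and 2 were the highest libraries and replicate 3 was low, and the groups overlapped. The log2 fold change with B-LGND2 against vehicle was 0.54 (95% interval −0.21 to 1.28, adjusted p 0.368), and with high fat against normal diet it was 0.06 (−0.70 to 0.82, adjusted p 0.943). Ddit3 overlaps Mars on the opposite strand, which had 2051 counts in all libraries against 461 for Ddit3, and since the strand setting of the counting is not given, reads of the shared stretch cannot be assigned with certainty.

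Trib3 (chr2:152337422-152344032, minus strand) encodes a pseudokinase that ATF4 and CHOP induce and that inhibits AKT. It had 6.95, 5.59 and 9.16 CPM in the B-LGND2 livers, 6.60, 6.92 and 9.48 CPM in the high fat vehicle livers and 7.95, 10.1 and 14.2 CPM in the normal diet livers. B-LGND2 replicate 2, the highest library for 5 of the 10 genes, was the lowest for Trib3. Trib3 had a log2 fold change of −0.09 (95% interval −0.76 to 0.58, adjusted p 0.886) with B-LGND2 against vehicle and −0.49 (−1.15 to 0.17, adjusted p 0.370) with high fat against normal diet.

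**Figure D2:**
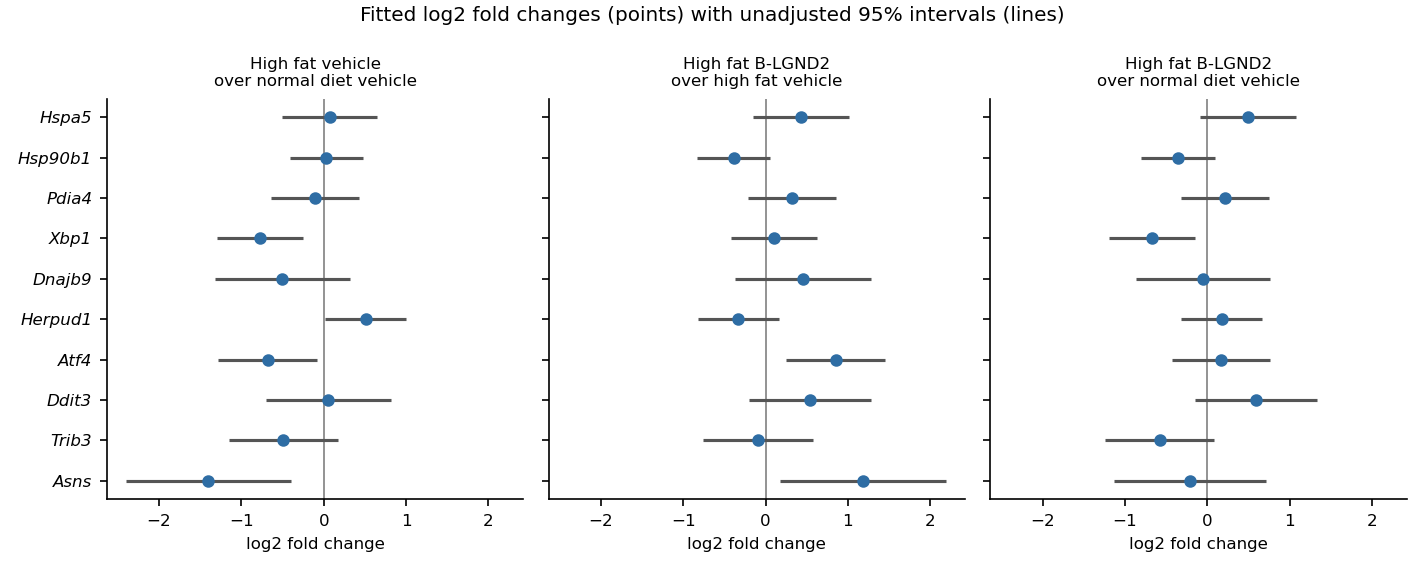
Fitted log2 fold changes of the 10 genes (points) with unadjusted 95% intervals (lines) in 3 comparisons, from left to right high fat vehicle over normal diet vehicle, high fat B-LGND2 over high fat vehicle, and high fat B-LGND2 over normal diet vehicle. Intervals of Xbp1, Herpud1, Atf4 and Asns leave out 0 in the left panel, those of Atf4 and Asns in the middle panel and that of Xbp1 in the right panel; none of the genes passed after adjustment over 12102 genes.

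The direct comparison of B-LGND2 on the high fat diet with vehicle on the normal diet gave values between −0.67 and 0.59 on the log2 scale, and the libraries of the 2 groups overlapped for all 10 genes, where 20.5% of all genes did not overlap. Xbp1 was the farthest from 0, at −0.67 (SE 0.25, 95% interval −1.19 to −0.15, adjusted p 0.150), and it passed without normal diet replicate 1 (−0.91, adjusted p 0.0285, range over the alternatives 0.0285 to 0.384). Atf4 was at 0.17 (95% interval −0.43 to 0.76) and Asns at −0.21 (−1.13 to 0.71). Hspa5 was at 0.50 (−0.08 to 1.08) and Trib3 at −0.58 (−1.24 to 0.08). The width of these intervals leaves changes of more than 0.5 on the log2 scale undecided for each of the 10 genes in at least 1 direction.

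A single library carried the highest level of several chaperone and ATF4 branch genes. B-LGND2 replicate 2 was the highest of the 9 libraries for Hspa5, Pdia4, Dnajb9, Atf4 and Ddit3, and not for Hsp90b1, Xbp1, Herpud1, Trib3 and Asns. The share of all tested genes that were highest in this library was not determined. Whether stress genes were highest in it more often than other genes was therefore not tested. The genes most like Hspa5 across the 9 libraries, by Pearson's r of log2 CPM among 10629 named genes, were Hyou1 (r = 0.923), Creld2 (0.919), Tmem248 (0.911), Atf3 (0.899) and Osmr (0.865). Hyou1 encodes a large ER chaperone and Creld2 an ER-resident protein, and both are on the list of ER folding genes used below. Hyou1 had 129.5, 297 and 107 CPM in the B-LGND2 livers, 99.3, 107 and 119 CPM in the high fat vehicle livers and 78.0, 90.0 and 106 CPM in the normal diet livers. The r of these 5 genes with Hspa5 was 0.672 to 0.797 over the 8 libraries without B-LGND2 replicate 2. These values describe the 9 libraries, which also share depth and composition, and carry no test.

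Among the other 9 genes, likeness to Hspa5 ran from 0.778 for Ddit3, 0.760 for Pdia4 and 0.678 for Dnajb9 down to −0.166 for Trib3 and −0.227 for Hsp90b1. Atf4 was at 0.511, Herpud1 at 0.388, Xbp1 at 0.170 and Asns at 0.164. The genes most like Asns were Gimap1 (r = 0.923), Sqstm1 (0.918), Rpn1 (0.912), Taf11 (0.902) and Lsm12 (0.884). None of these 5 is on the pathway lists, although Rpn1 encodes a subunit of the ER oligosaccharyl transferase and Sqstm1 the autophagy receptor p62. Atf4 had an r of 0.569 with Asns.

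**Figure D3:**
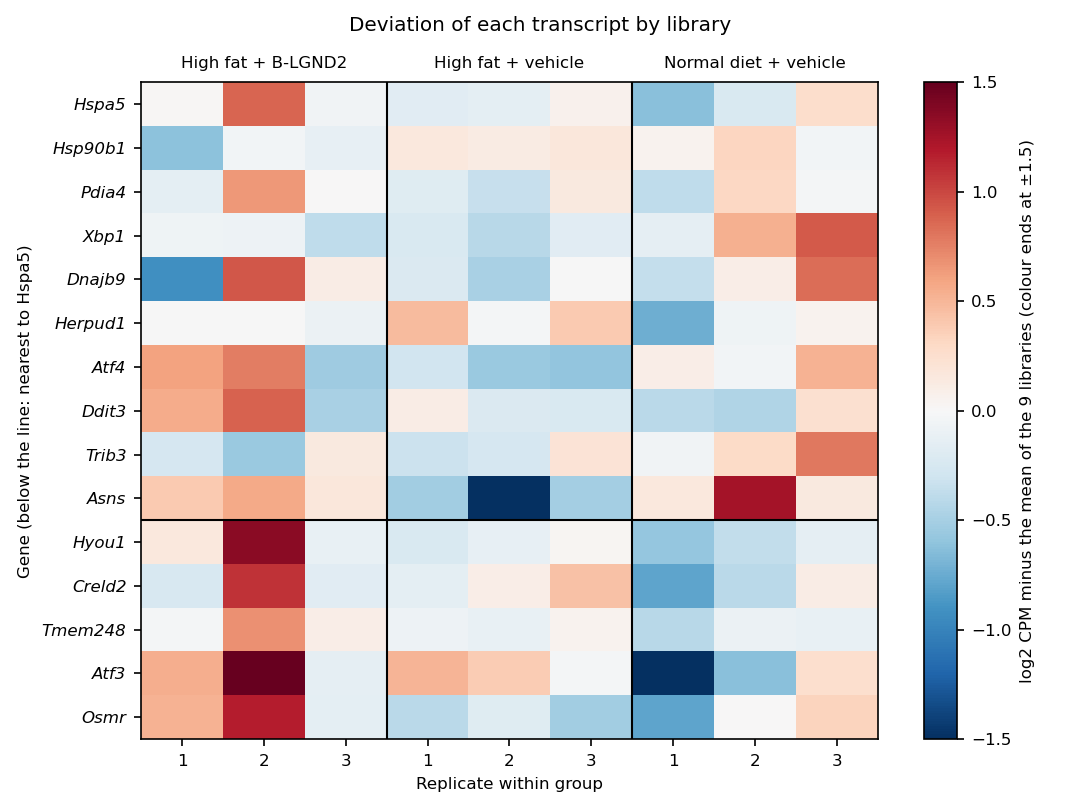
Deviation of each transcript from its mean over the 9 libraries (log2 CPM, colour scale ending at ±1.5) for the 10 genes, above the line, and the 5 genes most like Hspa5, below it, with B-LGND2 livers on the left, high fat vehicle livers in the middle and normal diet livers on the right. B-LGND2 replicate 2 is high for Hspa5, Pdia4, Dnajb9, Atf4, Ddit3 and all 5 genes below the line, and low for Trib3.

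The wider pathways were read from 6 lists with 145 further genes, of which 131 had enough counts to be tested. For high fat against normal diet under vehicle, 2 of these 131 were higher and 3 lower (1.5% and 1.49% of all genes tested), and the median log2 fold change was −0.13. For B-LGND2 against vehicle in high fat livers, 6 were higher and 5 lower (3.07% and 2.56% of all genes), with a median of 0.15. For B-LGND2 with high fat against the normal diet, 0 were higher and 1 lower (1.59% and 1.33% of all genes), with a median of −0.01. Without scaling beyond library size the splits were 2 higher and 1 lower for diet and 1 higher and 7 lower for B-LGND2 against vehicle, where the median of all genes moved to 0.17 and −0.18.

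On the high fat diet under vehicle the called genes of these lists were the folding genes Fkbp11 and Selenok, the translocation gene Sec61b, and, in the other direction, Gcn1l1 and Slc6a9. Fkbp11, an ER prolyl isomerase, had 7.92, 8.87 and 10.04 CPM in the high fat vehicle livers and 19.2, 20.3 and 36.9 CPM in the normal diet livers. The groups did not overlap, and it fell by 1.51 on the log2 scale (SE 0.29, adjusted p 0.0162). Selenok, an ER selenoprotein, fell by 1.23 (adjusted p 0.0318), and Sec61b, a subunit of the channel through which proteins enter the ER, fell by 1.17 (adjusted p 0.0369). Slc6a9, a glycine transporter on the ATF4 target list, had 25.1, 38.0 and 32.9 CPM in the high fat vehicle livers and 14.5, 11.2 and 6.36 CPM in the normal diet livers, and rose by 1.58 (SE 0.30, adjusted p 0.0169). Gcn1l1 encodes the partner through which the kinase GCN2 senses amino acid shortage, and it rose by 1.54 (adjusted p 0.0298), with 39.7, 40.9 and 42.5 CPM in the high fat vehicle livers and 22.1, 14.7 and 5.53 CPM in the normal diet livers.

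By list, the diet comparison called 0 higher and 2 lower of 25 ER folding genes (median log2 fold change −0.25) and 0 higher and 1 lower of 34 genes of ER-associated degradation and translocation (median −0.32). The sensors and transducers had 1 higher and 0 lower of 23 (median 0.10), and the ATF4 targets 1 higher and 0 lower of 20 (median 0.13). None of the 20 cytosolic aminoacyl-tRNA synthetases was called by edgeR, with 3 at an unadjusted p under 0.05 (22.4% of all genes), of which Sars (−0.63, adjusted p 0.101) and Farsb (−0.53, adjusted p 0.167) had the smallest p. None of the 9 IRE1 decay targets and XBP1-linked lipid genes was called, with 1 at an unadjusted p under 0.05, Bloc1s1 (−0.76, adjusted p 0.193), a transcript that IRE1 is known to cut. Each of the 5 calls was lost in 3 to 5 of the 9 fits that left out 1 library. Selenok and Sec61b also lost the call without scaling, Sec61b with length and GC offsets, and Gcn1l1 with only the 2 groups fitted. The number of calls over the 6 lists was 22 without normal diet replicate 1, 3 without normal diet replicate 3, 1 without normal diet replicate 2 or high fat vehicle replicate 1, and 0 without high fat vehicle replicate 2 or 3.

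With B-LGND2 on the high fat diet, 4 of 34 genes of ER-associated degradation and translocation were called higher and 4 of 20 ATF4 targets lower. Of all genes, 3.07% were called higher and 2.56% lower. The 4 called higher lost the call without scaling beyond library size. Selenos, a membrane partner of the degradation complex, had 91.4, 76.4 and 128 CPM in the B-LGND2 livers and 48.0, 46.9 and 50.2 CPM in the high fat vehicle livers, a log2 fold change of 1.03 (SE 0.26, adjusted p 0.0339). Srprb, a subunit of the signal recognition particle receptor, rose by 1.09 (adjusted p 0.0344), Edem2, which trims mannose from misfolded glycoproteins, by 0.89 (adjusted p 0.0345), and Ssr2, a subunit of the translocon-associated complex, by 1.15 (adjusted p 0.0354). For these 4 genes no B-LGND2 library overlapped a high fat vehicle library. The remaining 30 of 34 tested genes of the list did not pass, and the list median was 0.26.

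Of the 20 ATF4 targets, 0 were called higher and 4 lower with B-LGND2, where 3.07% of all genes were called higher and 2.56% lower. The fold change was positive for 13 and negative for 7 of them, against 6011 and 6091 of all 12102 genes, and the list median was 0.14. Cth, the cystathionine gamma-lyase of cysteine synthesis, had 51.0, 65.8 and 59.8 CPM in the B-LGND2 livers and 166, 104 and 104 CPM in the high fat vehicle livers, and fell by 1.08 on the log2 scale (SE 0.24, adjusted p 0.0203). Chac1, which degrades glutathione, had 8.57, 15.6 and 5.83 CPM in the B-LGND2 livers and 27.5, 21.8 and 31.6 CPM in the high fat vehicle livers, and fell by 1.43 (SE 0.34, adjusted p 0.0246). Cebpb, a transcription factor, fell by 0.94 (adjusted p 0.0401), and the amino acid transporter Slc38a2 fell by 0.93 (adjusted p 0.0488). Atf4 itself had its higher values in the B-LGND2 group, as given above, and Asns likewise. Both genes belong to the same branch as these 4, and neither passed the test.

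The remaining lists held few calls with B-LGND2 against vehicle. Of 25 ER folding genes 1 was higher and 1 lower (median 0.20). Fkbp11 rose by 1.22 on the log2 scale (SE 0.29, adjusted p 0.0239), with 23.8, 21.3 and 17.3 CPM in the B-LGND2 livers, above the 7.92 to 10.04 CPM of the high fat vehicle livers. Ppib, the ER cyclophilin B, fell by 1.19 (SE 0.26, adjusted p 0.0193), with 6.49, 9.56 and 12.3 CPM in the B-LGND2 livers and 19.6, 24.4 and 20.4 CPM in the high fat vehicle livers. Of 20 aminoacyl-tRNA synthetases Yars alone passed, rising by 0.74 (adjusted p 0.0483). None of the 23 sensors and transducers was called by edgeR, with 6 at an unadjusted p under 0.05 (23.7% of all genes), among them Eif2ak4, which encodes GCN2 (−1.01, adjusted p 0.105), and Gcn1l1 (−0.88, adjusted p 0.123). None of the 9 IRE1 decay targets and lipid genes was called, with 3 at that level, led by Scara3 (1.08, adjusted p 0.166) and Col6a1 (0.70, adjusted p 0.190).

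Each of the 11 calls with B-LGND2 against vehicle was lost in 4 to 7 of the 9 fits that left out 1 library. Without scaling beyond library size Selenos, Srprb, Edem2, Ssr2 and Yars lost the call, and with the replicate number as a block Srprb, Edem2, Ssr2, Cebpb, Slc38a2 and Yars did. Slc38a2 also lost it with DESeq2 size factors and with the filter of 50 counts in 3 libraries, and Yars without a filter. Over the 6 lists there were 0 calls without B-LGND2 replicate 1 or high fat vehicle replicate 1 or 2, 1 without high fat vehicle replicate 3, 4 without normal diet replicate 2, 6 without B-LGND2 replicate 3, 7 without B-LGND2 replicate 2 and 19 without normal diet replicate 3. The macrophage, endothelial, cholangiocyte and B and plasma cell markers given above were higher in sum in the same B-LGND2 libraries, without overlap. The cholangiocyte sum was mostly Spp1 and the B and plasma cell sum mostly Sdc1. The part of these markers in the calls was not tested.

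**Figure D4:**
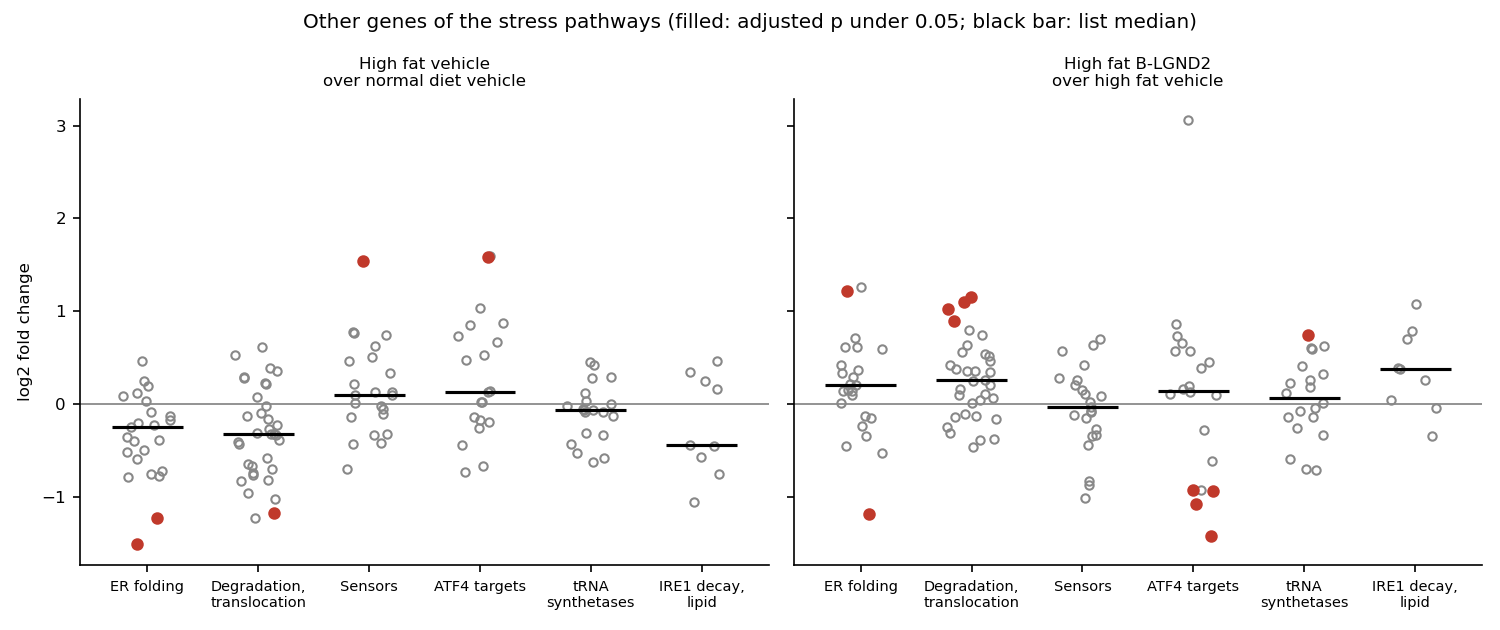
Log2 fold changes of the 131 tested genes of the 6 pathway lists for high fat vehicle over normal diet vehicle (left) and high fat B-LGND2 over high fat vehicle (right), each point a gene, filled red where the adjusted p is under 0.05, with the median of the list as a black bar. Medians lie between −0.45 and 0.13 on the left and between −0.03 and 0.37 on the right, and the filled points are few: 5 on the left and 11 on the right.

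Cth was the one gene of the 6 lists called between B-LGND2 on the high fat diet and vehicle on the normal diet. It had 51.0, 65.8 and 59.8 CPM in the B-LGND2 livers and 154, 144 and 211 CPM in the normal diet livers, and fell by 1.53 on the log2 scale (SE 0.25, adjusted p 0.00364). This call held in all 18 alternatives, with an adjusted p of at most 0.0321 when any 1 library was left out. None of the other lists held a call by edgeR in this comparison, with 7 of 25 ER folding genes, 5 of 34 degradation and translocation genes, 3 of 23 sensors, 5 of 20 synthetases and 2 of 9 IRE1 decay and lipid genes at an unadjusted p under 0.05, which 19.4% of all genes reached. The smallest p of these lists belonged to Ppib (−0.99, adjusted p 0.0530) and Pdia3 (−0.86, adjusted p 0.0625), to Sec61b (−1.02, adjusted p 0.0615) and the ubiquitin ligase gene Syvn1 (0.82, adjusted p 0.0836), to the sensors Creb3l2 (0.67, adjusted p 0.162) and Atf6 (0.48, adjusted p 0.203), to Yars (0.61, adjusted p 0.123) and Dars (−0.67, adjusted p 0.124), and to Col6a1 (1.16, adjusted p 0.0625) and Pdgfrb (0.94, adjusted p 0.169). Pdgfrb is also on a list of 7 stellate cell markers. These summed to 73.4 to 99.1 CPM with B-LGND2 and 47.9 to 63.8 CPM on normal diet. All 7 had a positive fold change in this comparison, and none was called. The part of stellate cells in the values of Pdgfrb and Col6a1 was not tested. Over the lists the number of calls was 8 without normal diet replicate 1, 4 without B-LGND2 replicate 3 and 2 without normal diet replicate 3.

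Several known ATF4 targets could not be compared at this depth. Slc7a11, the cystine transporter gene, had 0 counts in all 9 libraries, and the serine synthesis genes Phgdh and Psat1 had 3 and 21 counts in all. Nupr1 had 45 and Vldlr 41 counts in all libraries, with at most 16 and 10 in any 1 of them.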

How the data were processed

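Poly(A)-enriched liver RNA was made into amplified, barcoded libraries and sequenced on an Ion Torrent Proton, per the labels' protocols. The submitters' processing notes name the build GRCm38.p3 and the tools HTSeq 0.6.1p1, TopHat2 2.0.13, Bowtie2 2.2.4, DESeq2 1.6.3 and SAMtools 0.1.19. The sources used here do not give the annotation release or how strand and ambiguous reads were handled. Raw counts for 45513 gene IDs in 9 libraries, not normalized, are what the authors deposited. Counts from amplified libraries are not molecules. Symbols, coordinates and exon lengths came from GENCODE M21 (GRCm38), which gave 44671 IDs a symbol. Promoter windows came from RefSeq (GRCm38.p6).

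The 12102 genes kept by filterByExpr (minimum count 10) held at least 99.7% of each library's counts. They were fitted in one quasi-likelihood model with a term for group (edgeR 4.0.16 in R 4.3.3, TMM scaling, robust dispersions, 6 residual degrees of freedom). There were 3 two-sided contrasts, each adjusted by Benjamini-Hochberg over all 12102 genes, with a threshold of 0.05. The 3 contrasts share libraries. Intervals are 95% intervals of single genes, unadjusted. CPM used the scaled library sizes, and log2 CPM a prior count of 2. The fitting script was tested on simulated data. Alternatives were other scalings, filters, limma-voom 3.58.1, DESeq2 1.42.0, length and GC offsets, a replicate block, only the 2 groups compared, and each library left out in turn.

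The members, lists, tests and naming rule were chosen with earlier results of these data known. Of each pathway list, the text names genes called in a contrast (up to 6), or in a list without a call the 2 with the smallest p, and for Hspa5 and Asns the 5 most like genes. One gene that this rule names is not reported here. With 3 samples per group, p-values cover only how far these samples spread, which may be technical. No pair of libraries agreed within sampling noise (chi-square at least 12.9 per degree of freedom). Same-numbered samples showed no strong joint deviation: of 9 pairs, 1 had a correlation over 0.1 (range −0.193 to 0.124).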

Additional observations from a re-analysis of the deposited data

How the results depend on the processing

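Of 537 alternative fits of the 30 fold changes of the 10 genes, 504 kept direction and side of the threshold, 9 newly passed it (Xbp1, Atf4 and Asns, in the report) and 24 changed sign, none of them past the threshold. The cause was not tested. Sign changes by setting were, without scaling, Pdia4 for diet (0.051), Xbp1 for B-LGND2 against vehicle (−0.078) and Dnajb9 for B-LGND2 against normal diet (0.0073), and with length and GC offsets the same 3 (0.019, −0.032 and 0.40). The others came from leaving out 1 library, with these ranges: for diet, Hspa5 −0.12 to 0.33, Hsp90b1 −0.047 to 0.15, Pdia4 −0.27 to 0.081 and Ddit3 −0.063 to 0.32. For B-LGND2 against vehicle they were Dnajb9 −0.071 to 0.84 and Trib3 −0.29 to 0.090. For B-LGND2 against normal diet they were Pdia4 −0.068 to 0.40, Dnajb9 −0.60 to 0.34, Herpud1 −0.029 to 0.32, Atf4 −0.071 to 0.47 and Asns −0.41 to 0.24. Asns had too few counts for the filter of 50 counts in 3 libraries, so that alternative gave no value.

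In the order diet, ligand (B-LGND2 over vehicle) and ligand over normal diet, the genes called among all tested were 362, 681 and 354. They were 1182, 1345 and 751 without a filter, 984, 1123 and 660 with DESeq2, and 153, 1420 and 144 with only the 2 groups fitted. Leaving out 1 library gave 35 to 1860, 100 to 1439 and 111 to 639. Without scaling the split of calls was 260 higher and 98 lower for diet (182 and 180 with scaling) and 211 higher and 468 lower for B-LGND2 against vehicle (371 and 310). Of the 10 genes, 1, 1 and 0 were called without a filter and with DESeq2, and 0 to 2, 0 to 1 and 0 to 1 with 1 library left out. Pathway genes called were 5, 11 and 1. For diet they were 3 without scaling, 15 without a filter, 12 with DESeq2 and 0 to 22 with 1 library left out. For B-LGND2 against vehicle they were 20 with only the 2 groups fitted and 0 to 19 with 1 library left out. For B-LGND2 against normal diet they were 11 without a filter, 9 with DESeq2, 3 with limma-voom, 3 with length and GC offsets and 1 to 8 with 1 library left out.

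The labels number the samples 1 to 3 in each group and do not say whether same-numbered samples belong together. Their deviations showed no strong correlation, as given above, which does not exclude a weaker shared effect. With the replicate number as a block, 203, 492 and 253 genes were called in that order, with 0 of the 10 genes in each, and 5, 6 and 1 pathway genes.

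Precision is limited by 3 libraries per group and, for Asns, Ddit3 and Trib3, by low counts: the high fat vehicle libraries held 27 Asns counts in all.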

Other observations

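Among the ATF4 targets on the list, Gdf15, which encodes a stress-induced cytokine, had a coefficient of variation of 161% in the B-LGND2 group; it and the 2 genes after it were chosen after their values were seen. Gdf15 had 17, 676 and 17 counts in the B-LGND2 libraries, 36, 10 and 36 in the high fat vehicle libraries and 14, 6 and 30 in the normal diet libraries. The one high value, 99.5 CPM, belonged to B-LGND2 replicate 2, the library that was also highest for Hspa5, Pdia4, Dnajb9, Atf4 and Ddit3. With that spread the log2 fold change of 3.06 for B-LGND2 against vehicle had an SE of 1.57 and an adjusted p of 0.290.

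Fgf21, a hormone gene of the fasting and stress response, had 58, 35 and 6 counts in the B-LGND2 libraries, 16, 16 and 23 in the high fat vehicle libraries and 8, 1 and 9 in the normal diet libraries. Its log2 fold change for high fat against normal diet under vehicle was 1.59 (SE 0.66, adjusted p 0.169), and no library of one group overlapped the other. Manf, which encodes a secreted ER stress protein, had 76.0, 168 and 120 CPM in the B-LGND2 livers and 43.9, 47.5 and 60.2 CPM in the high fat vehicle livers, also without overlap, with a log2 fold change of 1.26 (SE 0.41, adjusted p 0.0845). Normal diet replicate 3 reached 153 CPM of Manf, against 37.1 and 70.8 CPM in the other normal diet livers.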
